A study of Mus musculus with 12 samples.

Results

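TRBV3 receptors are the T cell receptors whose beta chain was built from the V segment TRBV3. Their beta chains were taken as every assembled TRB chain whose V segment was named TRBV3 in the deposited chain tables of 6 mouse tumour libraries. They numbered 2899 of 24619 TRB chains and lay on 2521 cell barcodes. Of these chains, 1886 were the single beta chain of a barcode that also held 1 or 2 alpha chains, and these are the TRBV3 cells below, out of 19114 such cells in all. Another 847 chains lay on barcodes with 2 TRB chains and 166 had no alpha chain. The TRBV3 cells formed 806 clonotypes of 10623, a clonotype being the cells of a library with the same beta chain (TRBV, TRBJ and CDR3 bases) and a shared alpha chain. They held 801 distinct beta receptors by TRBJ and CDR3 bases, and 970 when all chains were counted. TRBV3 was chosen by its share of clonotypes, which was already known to differ between the treatments, so those shares are described below and not tested.

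The study sequenced T cell receptors of CD45+ leukocytes sorted from subcutaneous tumours of C57BL/6J mice aged 6 to 8 weeks. Each mouse carried 300000 inoculated cells of the colon cancer line that the labels call MC38-p53KO/R175H, although the growth protocol writes the substitution as R175W. On day 10, at a tumour size of 50 to 100 mm3, the tumours received 1 intratumoral dose of 40 µg of either LNP-P20-mAb or LNP-Ctrl. Each treatment had 3 TCR libraries, made from about 10000 sorted cells with 10x Genomics 5′ chemistry and V(D)J enrichment. The tumour line, the route and the day were the same in both groups, and the controls received the LNP-Ctrl particle. The labels give neither what P20 binds nor whether each library came from a separate animal, so p-values measure the spread between libraries, which may be technical. Gene expression was not analysed here, so whether a TRBV3 cell was a CD4+, CD8+ or regulatory T cell was not measured.

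A T cell receptor pairs an alpha chain, joined from a TRAV and a TRAJ segment, with a beta chain, joined from a TRBV, a TRBD and a TRBJ segment. The first and second loops of the beta chain (CDR1 and CDR2) are encoded in the V segment, whereas the third loop, CDR3, spans the junction, where bases are trimmed and added without a template. The CDR3 loops usually lie over the peptide and the CDR1 and CDR2 loops over the MHC molecule, so receptors of the same TRBV share part of their contact surface and differ in the junction. Cells that carry the same junction and the same alpha chain usually descend from the same T cell, which is why the size of a clonotype is used as a measure of clonal expansion.

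RefSeq places Trbv3, with the older name Tcrb-V16, on chromosome 6 as a V segment. All 2899 chains carried the same CDR1 and the same CDR2 residues, so that none differed in these loops. The CDR3 of TRBV3 clonotypes was 10 to 18 residues long with a median of 14, counted from the conserved cysteine to the conserved phenylalanine. It opened with CASS in 97.5% of clonotypes, and the next residue was leucine in 46.9%, proline in 14.5%, serine in 12.2% and phenylalanine in 9.06%.

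The beta chains of the 7 TRBV3 clonotypes with 20 or more cells in a library are printed first, since they set the share of cells that follows. They had 6 different junctions. Each is the CDR3 from its cysteine codon to its phenylalanine codon, 5′ to 3′, with bases that match the common V or J end in lower case and the bases between these matches in capitals. A clone or receptor is called below by its bases in capitals.
LNP-P20-mAb 3, 414 cells, TRBJ2-3, 14 residues: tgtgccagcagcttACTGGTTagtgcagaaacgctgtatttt
LNP-P20-mAb 1 and LNP-P20-mAb 2, 201 and 154 cells, TRBJ2-3, 14 residues: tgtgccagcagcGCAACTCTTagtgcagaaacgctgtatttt
LNP-P20-mAb 3, 37 cells, TRBJ2-1, 15 residues: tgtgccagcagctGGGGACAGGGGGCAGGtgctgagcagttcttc
LNP-Ctrl 3, 51 cells, TRBJ2-2, 16 residues: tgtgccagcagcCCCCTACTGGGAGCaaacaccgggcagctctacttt
LNP-Ctrl 1, 21 cells, TRBJ1-4, 15 residues: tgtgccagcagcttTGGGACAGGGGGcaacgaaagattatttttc
LNP-Ctrl 1, 21 cells, TRBJ1-5, 14 residues: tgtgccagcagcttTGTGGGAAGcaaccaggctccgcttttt
The largest clone of every LNP-P20-mAb library joined TRBV3 to TRBJ2-3 with a CDR3 of 14 residues, and 9 bases (LNP-P20-mAb 1 and 2) or 7 bases (LNP-P20-mAb 3) lay between its V and J matches. The junctions of the largest LNP-Ctrl clones used other TRBJ segments.

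LNP-P20-mAb 1 and LNP-P20-mAb 2 stood apart from the other libraries because they shared clones. They held 6 TRBV3 clonotypes in common, of 23 and 13, and these held 209 of 228 and 167 of 174 TRBV3 cells. No other pair of libraries shared a TRBV3 clonotype. Any 2 libraries had 11 to 29 cell barcodes in common, and a barcode with the same TRB chain occurred once, between LNP-P20-mAb 1 and LNP-P20-mAb 2. The sharing was not limited to TRBV3. Over all TRBV the 2 libraries held 561 and 400 clonotypes, and 847 when those with identical TRB and TRA bases were counted once. Whether both came from 1 animal was not tested. Means and tests with n = 3 count them as separate libraries. The segment tests, the share of clonotypes and the measures of clonotypes were repeated with both pooled. Over all receptors, LNP-P20-mAb libraries held 400 to 1354 clonotypes in 2016 to 3262 cells, against 1800 to 3416 clonotypes in 3333 to 3923 cells of LNP-Ctrl libraries. The total of UMIs (unique molecular identifiers, which count captured transcripts) per library was 85835 to 136311 in LNP-P20-mAb, against 110107 to 145847 in LNP-Ctrl.

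TRBV3 made up a smaller share of clonotypes in LNP-P20-mAb than in LNP-Ctrl libraries, whereas its shares of cells overlapped. It was used by 23 of 561, 13 of 400 and 17 of 1354 clonotypes in LNP-P20-mAb 1 to 3, or 4.1%, 3.25% and 1.26%. In LNP-Ctrl 1 to 3 it was used by 136 of 1800, 299 of 3092 and 318 of 3416 clonotypes, or 7.56%, 9.67% and 9.31%. The means were 2.87% ± 1.46 and 8.84% ± 1.13 (SD, n = 3 each), and the groups did not overlap. In descending order the libraries were LNP-Ctrl 2, LNP-Ctrl 3, LNP-Ctrl 1, LNP-P20-mAb 1, LNP-P20-mAb 2 and LNP-P20-mAb 3. The 95% Clopper-Pearson intervals, which cover counting error only, overlapped between every pair of neighbours in that order except LNP-P20-mAb 1 (2.62 to 6.09%) and LNP-Ctrl 1 (6.38 to 8.87%). TRBV3 ranked 10th, 13th and 19th of 22 TRBV segments by clonotypes in LNP-P20-mAb, against 3rd, 2nd and 1st in LNP-Ctrl.

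By cells, TRBV3 took 6.99%, 8.63% and 16.9% of the LNP-P20-mAb libraries, against 7.32%, 8.9% and 11% of the LNP-Ctrl libraries. The means were 10.8% ± 5.3 and 9.07% ± 1.84 (SD, n = 3 each), and the groups overlapped. When the largest TRBV3 clone of each library was left out, the shares were 0.882%, 1.07% and 2.72% in LNP-P20-mAb, against 6.73%, 8.48% and 9.77% in LNP-Ctrl. These values depend on the filter to barcodes with 1 TRB chain, described further on. With barcodes of 2 TRB chains given to the chain with more UMIs, an alternative chosen after seeing the data, they were 4.43%, 4.31% and 6.65% in LNP-P20-mAb, against 6.77%, 8.63% and 9.81% in LNP-Ctrl, and the groups did not overlap. Among clonotypes seen in 1 cell, TRBV3 made up 3.96%, 2.94% and 1.1% in LNP-P20-mAb, against 7.41%, 9.65% and 9.08% in LNP-Ctrl. Some of the LNP-P20-mAb clonotypes seen in 1 cell lay on further barcodes with 2 TRB chains, which these shares leave out. With those barcodes given by UMIs, the shares were 3.68%, 2.16% and 0.878% in LNP-P20-mAb, against 7.36%, 9.67% and 9.16% in LNP-Ctrl. The difference in mean share of clonotypes, LNP-P20-mAb minus LNP-Ctrl, was -5.98 percentage points, and it was -6.45 with LNP-P20-mAb 1 and 2 pooled.

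**Figure D1:**
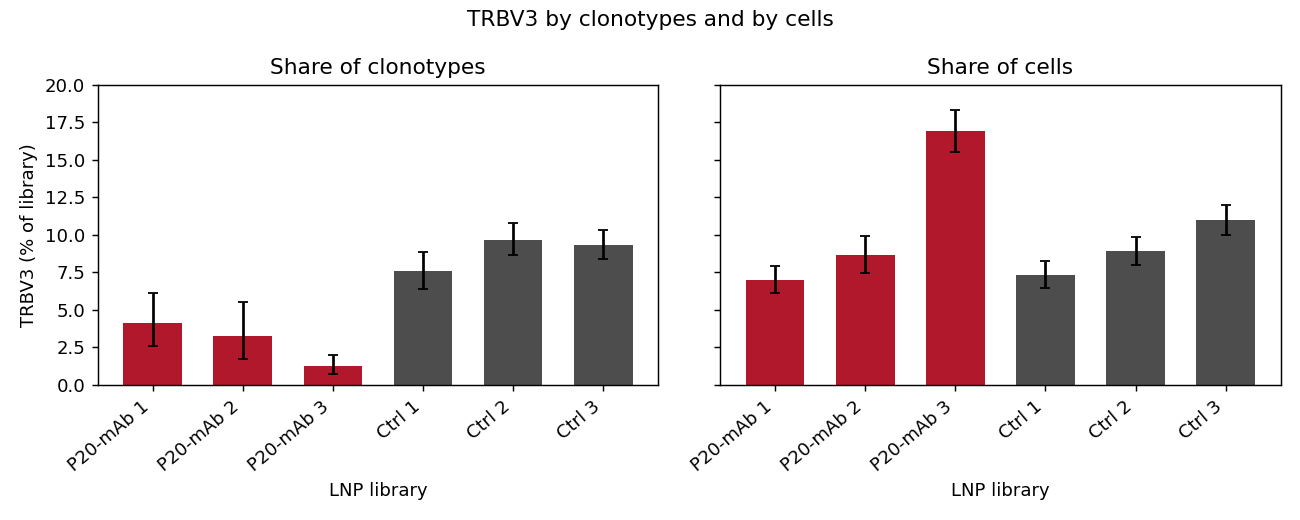
TRBV3 as a percentage of clonotypes (left) and of cells (right) in each library, with LNP-P20-mAb libraries in red and LNP-Ctrl libraries in grey. Bars are single libraries and whiskers are 95% Clopper-Pearson intervals. The share of clonotypes is 1.26 to 4.1% in LNP-P20-mAb, against 7.56 to 9.67% in LNP-Ctrl, whereas the shares of cells overlap.

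In LNP-P20-mAb, most TRBV3 cells belonged to 1 clone in each library, whereas in LNP-Ctrl the largest clone held a small share. The largest TRBV3 clone held 88.2%, 88.5% and 86.2% of all TRBV3 cells in LNP-P20-mAb 1 to 3, against 8.61%, 5.16% and 12.4% in LNP-Ctrl 1 to 3. Single-cell clonotypes held 7.89%, 5.17% and 2.71% of TRBV3 cells in LNP-P20-mAb, against 50%, 80.2% and 72.7% in LNP-Ctrl. The means were 5.26% ± 2.59 and 67.7% ± 15.7 (SD, n = 3 each). The mean TRBV3 clonotype had 9.91, 13.4 and 28.2 cells in LNP-P20-mAb, against 1.79, 1.17 and 1.29 cells in LNP-Ctrl. Clonotypes of other TRBV averaged 5.64, 4.76 and 1.77 cells in LNP-P20-mAb, against 1.86, 1.28 and 1.07 cells in LNP-Ctrl. The TRBV3 mean was thus above that of other clonotypes in all 3 LNP-P20-mAb libraries and in LNP-Ctrl 3.

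**Figure D2:**
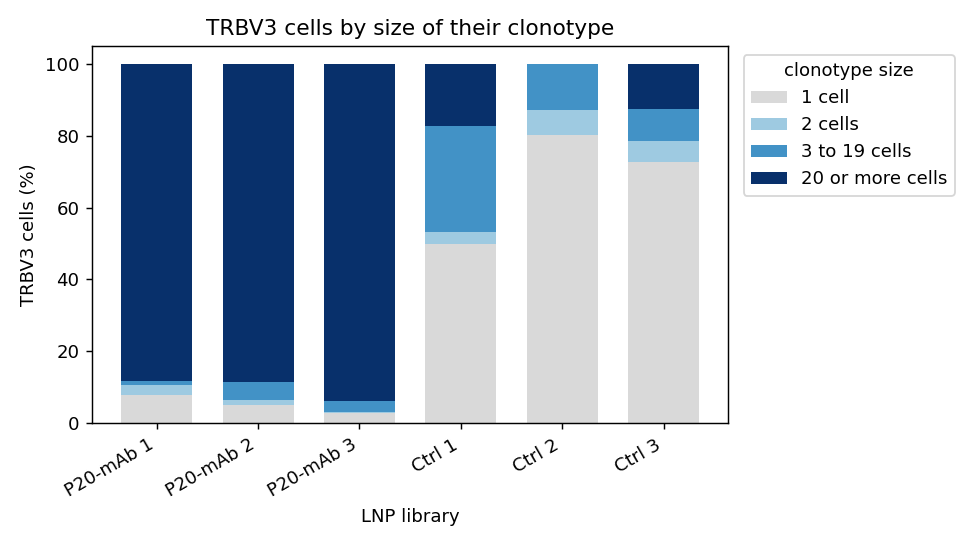
Percentage of TRBV3 cells in clonotypes of 1, 2, 3 to 19 and 20 or more cells, stacked to 100% for each library. Clonotypes of 20 or more cells fill 88.2 to 94% of the LNP-P20-mAb bars and 0 to 17.2% of the LNP-Ctrl bars.

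The alpha chains of the dominant clones used the same V segment. The GCAACTCTT clone was paired with TRAV7D-2 and TRAJ4, with the same alpha CDR3 of 13 residues, in both libraries that held it, where it took 6.16% of LNP-P20-mAb 1 (95% interval 5.36 to 7.04%) and 7.64% of LNP-P20-mAb 2 (6.52 to 8.89%). The ACTGGTT clone took 14.6% of LNP-P20-mAb 3 (13.3 to 15.9%) and was paired with TRAV7D-2, TRAJ17 and an alpha CDR3 of 16 residues in 404 of its 414 cells. A second alpha chain, TRAV4-2 with TRAJ35, was found in 335 of these cells. The beta chains of these clones were found in no other library, also when chains on barcodes with 2 TRB chains or without an alpha chain were counted.

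The other large TRBV3 clones had other alpha segments. The GGGGACAGGGGGCAGG clone of LNP-P20-mAb 3 was paired with TRAV12-2 and TRAJ37. In the controls, the CCCCTACTGGGAGC clone was paired with TRAV6D-6 and TRAJ26, the TGGGACAGGGGG clone with TRAV16 and TRAJ57, and the TGTGGGAAG clone with TRAV9-1 and TRAJ31. LNP-Ctrl 2 had no TRBV3 clonotype of 20 cells, and its largest, AGTGGT with TRBJ1-3 and TRAV7D-2, had 18 cells. That was the largest clonotype just outside the limit of 20, and the smallest inside it had 21 cells.

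Across clonotypes, TRAV7D-2 was a more frequent partner of TRBV3 in LNP-P20-mAb than in LNP-Ctrl libraries. It was the alpha V segment of 6 of 23, 4 of 13 and 2 of 17 TRBV3 clonotypes in LNP-P20-mAb 1 to 3, or 26.1%, 30.8% and 11.8%. In LNP-Ctrl 1 to 3 it was that of 5 of 136, 9 of 299 and 13 of 318, or 3.68%, 3.01% and 4.09%. The groups did not overlap, but this was not particular to TRAV7D-2. TRAV12-2 (8.7%, 15.4% and 5.88%, against 2.94%, 2.68% and 3.14%) was also higher in LNP-P20-mAb without overlap. So was TRAV6D-6 (8.7%, 7.69% and 5.88%, against 2.94%, 3.68% and 4.4%). Segments absent from LNP-P20-mAb but found in every LNP-Ctrl library, such as TRAV13-1, did not overlap either. Among clonotypes of other TRBV, TRAV7D-2 took 3.35%, 4.91% and 2.84% in LNP-P20-mAb, against 2.64%, 3.08% and 3.52% in LNP-Ctrl, and those groups overlapped. By cells, each counted by the alpha chain of its clonotype, TRAV7D-2 took 92.1%, 94.3% and 86.5% of TRBV3 cells in LNP-P20-mAb. In LNP-Ctrl it took 10.2%, 10.6% and 4.87%. The LNP-P20-mAb values are mostly the largest clone, which held 201 of 210, 154 of 164 and 414 of 415 of these TRAV7D-2 cells. With barcodes of 2 TRB chains given to the chain with more UMIs, they were 84.4%, 87.6% and 69.3%, against 10.4%, 10.2% and 3.45% in LNP-Ctrl.

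In edgeR's quasi-likelihood test on clonotype counts, TRAV7D-2 was the single segment that changed between treatments among TRBV3 clonotypes, at a log2 fold change (LNP-P20-mAb over LNP-Ctrl) of 2.63 ± 0.69 (SE) and a Benjamini-Hochberg adjusted p of 0.0125. That is 1 call among the 79 TRAV, TRAJ and TRBJ segments tested, or 1.27%. DESeq2 called it as well, at an adjusted p of 3.58e-05. The call was lost with LNP-P20-mAb 1 and 2 pooled (edgeR log2 2.39, adjusted p = 0.188). It was also lost without LNP-P20-mAb 1 (2.46, adjusted p = 0.608), LNP-P20-mAb 2 (2.45, 0.316), LNP-Ctrl 2 (2.48, 0.241) or LNP-Ctrl 3 (2.76, 0.06). With TMM factors, which shift the median log2 fold change of all segments to -1.58 from -0.08, edgeR called 0 segments higher and 8 lower, in place of 1 higher and 0 lower, and TRAV7D-2 had a log2 of 1.03 (adjusted p = 0.198). The difference between this change and the one among other clonotypes was 2.47 ± 0.72 (SE) on the log2 scale, with an edgeR adjusted p of 0.0788, and 2.31 (0.859) with LNP-P20-mAb 1 and 2 pooled. It passed without LNP-P20-mAb 3 (2.65, 0.0366). In that test of the difference edgeR called 0 of 129 segments, or 0%, with 4 at an unadjusted p under 0.05, and DESeq2 called 1, TRAV7D-2.

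**Figure D3:**
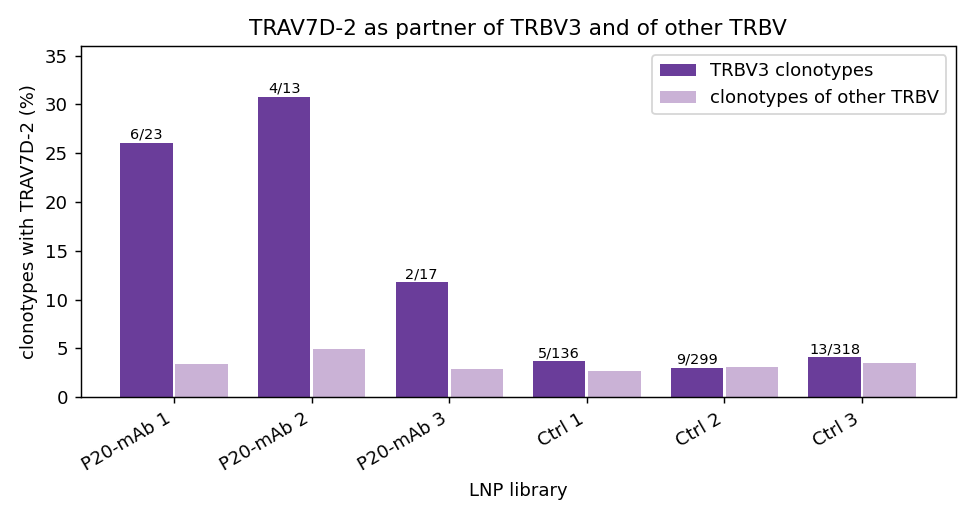
Percentage of clonotypes with TRAV7D-2 among TRBV3 clonotypes (dark) and clonotypes of other TRBV (light) in each library, with counts above the dark bars. The dark bars are 11.8 to 30.8% in LNP-P20-mAb, against 3.01 to 4.09% in LNP-Ctrl.

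The junctions of TRBV3 receptors with TRAV7D-2 resembled each other. Of 39 such clonotypes, 22 (56.4%) had a CDR3 of 14 residues that ended in TLYF, an ending encoded by TRBJ1-3, TRBJ2-3 or TRBJ2-4 in these chains. Among TRBV3 clonotypes with any other TRAV, 52 of 767 (6.78%) had that form, and among TRAV7D-2 clonotypes of other TRBV, 20 of 314 (6.37%). By treatment it was found in 10 of 12 TRBV3 clonotypes with TRAV7D-2 in LNP-P20-mAb, against 12 of 27 in LNP-Ctrl. TRAV7D-2 clones found in both LNP-P20-mAb 1 and LNP-P20-mAb 2 all had this form. They are counted in each library, also in the 22 and the 39. This form was picked after its values were seen, so no test is given. The following 7 junctions of the form come from 5 libraries and carry TRAV7D-2, with the bases between the V and J matches in capitals.
LNP-P20-mAb 1 and LNP-P20-mAb 2, TRBJ2-3: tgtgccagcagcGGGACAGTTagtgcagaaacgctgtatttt
LNP-P20-mAb 1 and LNP-P20-mAb 2, TRBJ2-4: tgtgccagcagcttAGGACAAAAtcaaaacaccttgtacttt
LNP-P20-mAb 1, TRBJ2-4: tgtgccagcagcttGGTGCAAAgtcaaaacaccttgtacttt
LNP-Ctrl 2, TRBJ2-4: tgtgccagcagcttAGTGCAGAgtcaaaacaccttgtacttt
LNP-Ctrl 2, TRBJ1-3: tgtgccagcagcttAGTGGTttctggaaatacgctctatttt
LNP-Ctrl 1, TRBJ1-3: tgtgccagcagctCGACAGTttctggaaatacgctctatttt
LNP-Ctrl 3, TRBJ1-3: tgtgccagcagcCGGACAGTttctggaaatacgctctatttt
The GGTGCAAA junction of LNP-P20-mAb 1 and the AGTGCAGA junction of LNP-Ctrl 2 encoded the same amino acids with TRAV7D-2 in both, but with TRAJ11 on the LNP-P20-mAb 1 receptor and TRAJ4 on the LNP-Ctrl 2 receptor.

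The 22 clonotypes held 17 distinct CDR3 amino acid sequences, of which 15 had serine at residue 8, counted from the first cysteine. Among the 50 distinct TRBV3 CDR3 of the same length and ending with another TRAV, 21 had serine there. The common ends of TRBJ1-3 and TRBJ2-3 can encode this serine. The bases between the V and J matches numbered 8.05 ± 1.13 in the 22 clonotypes, 9.63 ± 2.58 in the 52 of the same form with another TRAV and 11.1 ± 3.7 in all 806 TRBV3 clonotypes (SD over clonotypes). The form fixes the length and limits the TRBJ, so the lower number than in all 806 follows in part from how it was picked. The alpha side was mixed, since the 39 clonotypes used 21 TRAJ segments, led by TRAJ32 with 6, TRAJ4 with 5 and TRAJ22 with 4. Clonotypes of 3 or more cells made up 12 of the 39 (30.8%), against 20 of the 767 TRBV3 clonotypes with other TRAV (2.61%). In LNP-P20-mAb these counts were 6 of 12 and 2 of 41, and in LNP-Ctrl 6 of 27 and 18 of 726. The LNP-P20-mAb count includes clones found in both LNP-P20-mAb 1 and LNP-P20-mAb 2. Of TRAV7D-2 clonotypes of other TRBV, 7.64% had 3 or more cells. By library it was 16.7%, 26.3% and 21.1% under LNP-P20-mAb, against 11.4%, 2.33% and 0.917% under LNP-Ctrl. For all clonotypes of other TRBV it was 12.8%, 18.3% and 7.63%, against 4.75%, 2.86% and 1.13%. The share with TRAV7D-2 was thus also higher for other TRBV, except in LNP-Ctrl 2 and LNP-Ctrl 3.

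Many TRBV3 chains lay on barcodes with 2 TRB chains, and in LNP-P20-mAb nearly all of those barcodes carried the beta chain of the largest TRBV3 clone. Of TRBV3 chains, 56.2%, 43.1% and 32.5% lay on such barcodes in LNP-P20-mAb 1 to 3, against 11.7%, 12.6% and 7.94% in LNP-Ctrl 1 to 3. For chains of other TRBV the values were 18.3%, 11.9% and 15.2% in LNP-P20-mAb, against 10.8%, 11.9% and 10.3% in LNP-Ctrl. Both chains were TRBV3 on 163 of 164, 74 of 77 and 118 of 121 of these barcodes in LNP-P20-mAb, against 12 of 23, 8 of 48 and 3 of 36 in LNP-Ctrl. A shared TRBV was not limited to TRBV3. Over all barcodes with 2 TRB chains, TRBV3 included, both chains had the same TRBV on 95.9%, 88.6% and 60.4% in LNP-P20-mAb. In LNP-Ctrl the values were 56.5%, 20.5% and 6.55%. The LNP-P20-mAb values were 514, 187 and 212 barcodes, which include the 163, 74 and 118 with TRBV3. Of the barcodes with TRBV3, 163, 72 and 118 held the beta chain of its largest clone in LNP-P20-mAb, against 9, 1 and 0 in LNP-Ctrl.

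On those barcodes the second TRBV3 chain came from few receptors: 8, 9 and 6 in LNP-P20-mAb 1 to 3. In LNP-P20-mAb 1, the GGGACAGTT chain (TRBJ2-3) lay on 48 barcodes beside the largest clone's chain and in 3 cells alone, and CCCGGACAGGGGG (TRBJ1-3) on 47 beside it and in 2 alone. In LNP-P20-mAb 3, AACACAGGGTGG (TRBJ2-2) lay on 55 beside it and in 14 cells alone, and GGGGACAGGGGGCAGG on 51 beside it and in 37 alone. An alpha chain was known from cells with the second receptor alone for 143, 61 and 114 of the 163, 72 and 118 barcodes. In LNP-P20-mAb 1 and 2 it rested on 1 to 5 such cells for each receptor. It was present on 111, 53 and 114 of the barcodes, and that of the largest clone on 32, 8 and 0. The largest clone's beta chain had a median of 11, 6 and 6 UMIs there, against 16, 25 and 25 UMIs for the second chain. In its own cells it had a median of 30, 32 and 21 UMIs.

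The filter to 1 TRB chain therefore left out most barcodes of the smaller TRBV3 receptors in LNP-P20-mAb. Barcodes that also carried the largest clone's chain made up 85.8%, 78.3% and 64.1% of those with another TRBV3 chain in LNP-P20-mAb, against 3.88%, 0.301% and 0% in LNP-Ctrl. How the largest clone's chain came onto these barcodes was not tested. When each barcode with 2 TRB chains was given to the chain with more UMIs, TRBV3 took 5.06%, 4.4% and 1.39% of clonotypes in LNP-P20-mAb, against 7.45%, 9.7% and 9.35% in LNP-Ctrl. The groups again did not overlap. The largest clone then held 59.6%, 64.5% and 69.1% of TRBV3 cells in LNP-P20-mAb, against 8.08%, 4.72% and 11.7% in LNP-Ctrl.

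Under that assignment GGGGACAGGGGGCAGG of LNP-P20-mAb 3, which had 37 cells before, had 87. Other TRBV3 clones newly reached 20 cells in LNP-P20-mAb: AACACAGGGTGG with 65 in LNP-P20-mAb 3, GGGACAGTT with 34 in LNP-P20-mAb 1 and 22 in LNP-P20-mAb 2, and CCCGGACAGGGGG with 30 in LNP-P20-mAb 1. TRAV7D-2 was then the partner of 12 of 31, 9 of 19 and 2 of 20 TRBV3 clonotypes in LNP-P20-mAb, against 5 of 142, 10 of 324 and 13 of 339 in LNP-Ctrl. By distinct beta chains it was the partner of 8 of 24, 8 of 18 and 2 of 18 in LNP-P20-mAb, and LNP-P20-mAb 1 and LNP-P20-mAb 2 shared 7 of their 8. In edgeR, TRAV7D-2 was then higher in LNP-P20-mAb among TRBV3 clonotypes (log2 3.21, adjusted p = 1.04e-06), as were TRAJ32 (3.13, 0.000153) and TRBJ2-3 (1.47, 0.0453). The difference from other clonotypes also passed for TRAV7D-2 (log2 3.04, adjusted p = 6.35e-05). These fits count clonotypes shared by LNP-P20-mAb 1 and 2 in each library, and no fit pooled both under this assignment.

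**Figure D4:**
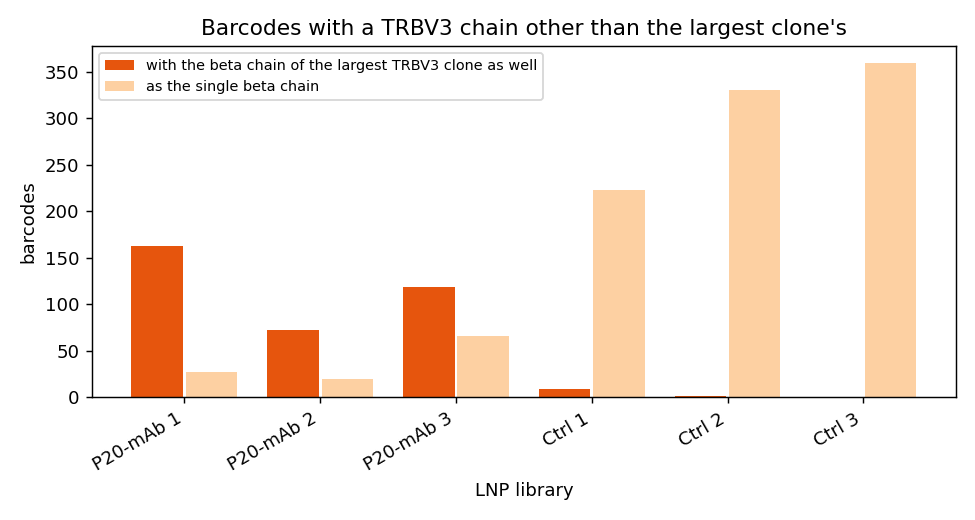
Barcodes in each library with a TRBV3 chain other than that of the largest TRBV3 clone. Those counted as dark bars also carried the largest clone's beta chain. Those counted as light bars had that TRBV3 chain as the only beta chain and at least 1 alpha chain. The dark bars are 163, 72 and 118 in LNP-P20-mAb, against 9, 1 and 0 in LNP-Ctrl.

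Against clonotypes of other TRBV in the same libraries, TRBV3 clonotypes used the J segment TRBJ1-6 less. TRBJ1-6 was joined to TRBV3 in 0, 0 and 0 clonotypes of LNP-P20-mAb, against 0, 3 and 1 of LNP-Ctrl, or 4 of 806 in all (0.496%). Clonotypes of other TRBV used it in 302 of 9817 (3.08%). The log2 fold change of TRBV3 over other clonotypes was -2.56 ± 0.61 (SE), with an adjusted p of 0.0034 in edgeR's quasi-likelihood test blocked by library. It was the 1 segment called of 129 tested, or 0.775%. DESeq2 did not call it (log2 -2.22, adjusted p = 0.232), and edgeR kept it with LNP-P20-mAb 1 and 2 pooled (-2.56, adjusted p = 0.00935) but lost it without LNP-Ctrl 1 (-2.29, adjusted p = 0.0924) or without LNP-Ctrl 3 (-2.20, 0.145).

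The other TRBJ segments of TRBV3 had smaller differences, none of which passed. TRBJ2-1 had a log2 of -0.53 ± 0.19 (SE), TRBJ2-3 of 0.38 ± 0.19 and TRBJ1-3 of 0.41 ± 0.28, with edgeR adjusted p of 0.199, 0.49 and 0.654. TRBJ1-4 and TRBJ1-2 were used by 0 of 53 TRBV3 clonotypes in LNP-P20-mAb, which allows a share of up to 5.66% by 3 counts, against 50 and 43 of 753 in LNP-Ctrl (6.64% and 5.71%). Among clonotypes of other TRBV, TRBJ1-4 was used by 5.84% in LNP-P20-mAb, against 6.6% in LNP-Ctrl. The change of neither segment between treatments passed among TRBV3 clonotypes (edgeR adjusted p = 0.6 for each), but both were among the 8 called lower with TMM factors (adjusted p = 0.0152 for each). TRBJ1-3 was used by 15.1% in LNP-P20-mAb, against 5.58% in LNP-Ctrl (log2 1.42, edgeR adjusted p = 0.6), and TRBJ2-3 by 18.9%, against 11% (0.78, 0.6). On the alpha side, TRAV6D-6 had a log2 between treatments of 0.96, TRAJ22 of 0.12, TRAV16N of -0.02, TRAJ31 of -0.37 and TRAJ23 of -1.61 among TRBV3 clonotypes, and none passed (edgeR adjusted p = 0.602 to 0.988).

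On the alpha side no segment passed against clonotypes of other TRBV. TRAV9N-4 had the highest log2, at 20 of 806 TRBV3 clonotypes (2.48%) and 96 of 9817 others (0.978%), with a log2 of 1.32 ± 0.41 (SE) and an edgeR adjusted p of 0.0909. All 20 lay in LNP-Ctrl libraries, where it was used by 5, 9 and 6 TRBV3 clonotypes. TRAV7D-2 had a log2 of 0.72 (adjusted p = 0.362) in this comparison, and 1.29 (0.0256) with barcodes of 2 TRB chains given to the chain with more UMIs. TRAJ9 and TRAJ21 had log2 values of -1.24 ± 0.47 and -1.12 ± 0.45, and TRAJ16 and TRAJ35 of 1.08 ± 0.46 and 1.06 ± 0.53, with edgeR adjusted p of 0.237 to 0.524. The next highest TRAV was TRAV7D-3, at 0.89 (adjusted p = 0.566). TRAV11, the V segment of the invariant alpha chain of NKT cells, was paired with TRBV3 in 1 clonotype and had the lowest log2, -2.31 ± 0.94, followed by TRAV13N-4, also in 1 clonotype, at -2.25 ± 0.95 (edgeR adjusted p = 0.362 for each). With TRAJ18, which completes that chain, TRBV3 had 0 of 806 clonotypes, against 56 of 9817 of other TRBV. The alpha chain typical of MAIT cells, TRAV1 with TRAJ33, was found in 0 of 806 and 17 of 9817.

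The centre of the TRBV3 CDR3, without its first 4 and last 4 residues, was less hydrophilic than in clonotypes of other TRBV. Its mean hydropathy on the Kyte-Doolittle scale, on which higher values are more hydrophobic, was -0.678, -0.413 and -0.538 in LNP-P20-mAb, against -0.987, -1.01 and -1.03 for clonotypes of other TRBV there. In LNP-Ctrl it was -0.885, -0.726 and -0.845 for TRBV3, against -1.05, -1.08 and -1.17. TRBV3 was higher in 6 of 6 libraries by 0.373 ± 0.151 (SD), with an exact sign-flip p of 0.031, the smallest that 6 libraries allow, and an adjusted p of 0.125 over the 8 measures tested. It therefore failed the correction, which no measure could have passed unless more of them had reached the smallest p. With other clonotypes weighted to the TRBJ usage of TRBV3, the difference kept its sign. The common V end of TRBV3, 14 bases long, reaches into residue 5. This residue belongs to the centre and was leucine in 46.9% of TRBV3 clonotypes. How far the V segment itself set the difference was not tested.

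TRBV3 clonotypes carried 2 alpha chains less often in each library, at 8.7%, 7.69% and 11.8% in LNP-P20-mAb, against 11.3%, 12.7% and 13.1% for clonotypes of other TRBV. These TRBV3 shares are of only 23, 13 and 17 clonotypes. A single further clonotype with 2 alpha chains would turn the sign in each of these LNP-P20-mAb libraries. In LNP-Ctrl the shares were 11%, 11.4% and 13.5% for TRBV3, against 13.7%, 13.7% and 14.6%. The difference was -2.5 ± 1.39 percentage points (SD), lower in 6 of 6 libraries, with an exact sign-flip p of 0.031 and an adjusted p of 0.125. The CDR3 was 14.1 residues long in TRBV3 and 14 in other clonotypes (exact p = 0.4375). The share of TRBJ2 segments was 69.6% and 69.2% (exact p = 0.875), and that of clonotypes with 3 or more cells 10.2% and 7.92% (exact p = 0.3125). This last difference, 2.3 points, was 16.2 with barcodes of 2 TRB chains given by UMIs, 21.8 with them kept, 0.751 without LNP-P20-mAb 3 and 3.58 without LNP-P20-mAb 1.

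**Figure D5:**
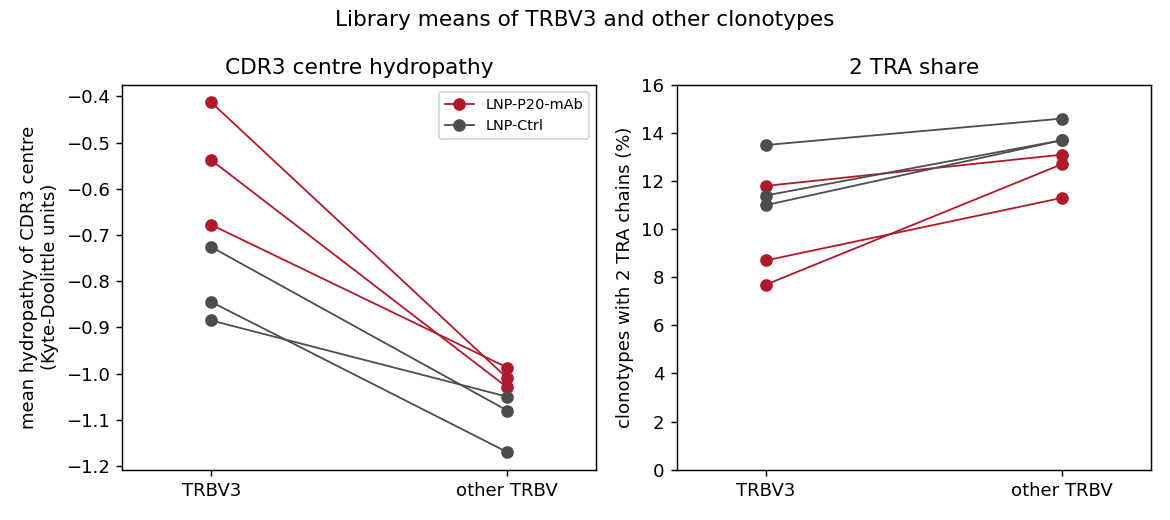
Mean hydropathy of the CDR3 centre (left, Kyte-Doolittle units) and percentage of clonotypes with 2 alpha chains (right), for TRBV3 and for other TRBV, with a line for each library. Red lines are LNP-P20-mAb and grey lines LNP-Ctrl. TRBV3 is higher on the left and lower on the right in all 6 libraries.

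Between treatments, no measure of TRBV3 clonotypes could pass, since 3 libraries against 3 allow no exact permutation p under 0.1. Clonotypes of 3 or more cells made up 16.5% ± 7.26 of TRBV3 clonotypes in LNP-P20-mAb, against 3.97% ± 2.93 in LNP-Ctrl (SD, n = 3 each), with an exact p of 0.1 and an adjusted p of 0.267. That difference of 12.5 points was 40.4 with barcodes of 2 TRB chains given by UMIs, 53.1 with them kept and 11.5 with LNP-P20-mAb 1 and 2 pooled. With the assignment by UMIs the shares were 35.5%, 57.9% and 40% in LNP-P20-mAb, against 7.04%, 3.09% and 2.06% in LNP-Ctrl. CDR3 centre hydropathy was -0.543 ± 0.133 in LNP-P20-mAb, against -0.819 ± 0.0826 in LNP-Ctrl (exact p = 0.1). The mean log2 of beta chain UMIs per cell, averaged over clonotypes, was 3.46 ± 0.38 and 4.06 ± 0.31 (exact p = 0.1). That difference, -0.597, was -0.256 with barcodes of 2 TRB chains given by UMIs and -0.773 with them kept. In these 3 measures the TRBV3 groups did not overlap. Clonotypes of other TRBV also did not overlap in the share of 3 or more cells or in hydropathy. Their share was 12.8%, 18.3% and 7.63% in LNP-P20-mAb, against 4.75%, 2.86% and 1.13% in LNP-Ctrl. Their hydropathy was -0.987, -1.01 and -1.03, against -1.05, -1.08 and -1.17. In mean log2 beta chain UMIs they overlapped, at 3.83, 4.03 and 4.02, against 4.14, 3.67 and 3.77. Among TRBV3 clonotypes, CDR3 length was 14.2 residues in LNP-P20-mAb, against 14 in LNP-Ctrl (exact p = 0.2), and the share of TRBJ2 was 72.6% ± 10.5 and 66.6% ± 1.77 (exact p = 0.4). The difference in TRBJ2, 5.99 points, was 1.11 without LNP-P20-mAb 3, 11.5 without LNP-P20-mAb 2 and 9.57 with LNP-P20-mAb 1 and 2 pooled.

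Beta chain UMIs per cell depended on whether cells or clonotypes were counted. Over cells, TRBV3 had a median of 28, 29 and 21 UMIs in LNP-P20-mAb, against 18, 20 and 17 for cells of other TRBV. In LNP-Ctrl the medians were 22, 17 and 15 for TRBV3 and 21, 14 and 14 for other TRBV. The cell medians in LNP-P20-mAb were mostly those of the largest clone, whereas in the mean over clonotypes that clone counted once.

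TRBV3 receptors were rarely found in more than 1 library. The counts of this paragraph have no value for other TRBV beside them, so they do not show a trait particular to TRBV3. Among cells with 1 TRB chain, of 765 receptors with distinct CDR3 amino acids and TRBJ, 746 were found in 1 library, 17 in 2, and 1 each in 3 and in 4. Of the 17, 4 were shared by LNP-P20-mAb 1 and LNP-P20-mAb 2, 9 by LNP-Ctrl libraries and 4 by both treatments. In 13 of the 19 shared receptors, the same amino acids were encoded by at least 2 different junctions. Both receptors found in such cells of 3 or more libraries are printed to show this, the first with TRBJ1-1 and 14 residues, the other with TRBJ1-3 and 15 residues.
TRBJ1-1, LNP-Ctrl 1: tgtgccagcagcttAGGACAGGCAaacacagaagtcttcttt
TRBJ1-1, LNP-Ctrl 2: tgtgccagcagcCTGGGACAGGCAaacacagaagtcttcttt
TRBJ1-1, LNP-Ctrl 3: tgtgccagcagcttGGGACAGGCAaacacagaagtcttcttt
TRBJ1-3, LNP-P20-mAb 1 and LNP-P20-mAb 2: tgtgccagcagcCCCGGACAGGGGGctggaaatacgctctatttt
TRBJ1-3, LNP-P20-mAb 1, LNP-P20-mAb 2, LNP-Ctrl 1 and LNP-Ctrl 3: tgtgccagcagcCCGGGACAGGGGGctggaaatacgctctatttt
The TRBJ1-1 receptor was paired with TRAV9N-4, TRAJ22 and the same alpha CDR3 in LNP-Ctrl 1 (1 cell) and LNP-Ctrl 2 (6 cells), and with TRAV3N-3 in LNP-Ctrl 3 (1 cell). The TRBJ1-3 receptor had 13 cells in LNP-Ctrl 1, with TRAV3-3, and 1 to 3 cells in each other library that held it, with 4 other TRAV segments. Over all TRBV3 chains, barcodes with 2 TRB chains included, 5 of 921 receptors were found in 3 or more libraries, and 4 of these were in both treatments. The 3 added receptors include the CGACAGT junction printed above, with the same bases on 13 barcodes in LNP-P20-mAb 1 and 4 in LNP-P20-mAb 2, against 12 in LNP-Ctrl 1, and the receptor of the GGTGCAAA and AGTGCAGA junctions, on 15 barcodes in LNP-P20-mAb 1 and 2 in LNP-P20-mAb 2, against 15 in LNP-Ctrl 2.

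Some TRBV3 receptors differed from others by a single residue, with no count for other TRBV to compare. With TRBJ and length held equal, 33 groups of 3 or more CDR3 sequences in at least 2 libraries were linked by single changes. The group with most CDR3 sequences had 11 with TRBJ1-3 and 14 residues, in 13 clonotypes of 5 libraries, and 7 of the 13 carried TRAV7D-2. It included the TRBJ1-3 junctions AGTGGT of LNP-Ctrl 2, CGACAGT of LNP-Ctrl 1 and CGGACAGT of LNP-Ctrl 3. Of the 10 most frequent stretches of 4 residues in TRBV3 CDR3, SLGG was in 44 of 801 receptors (5.49%), against 1.59% of receptors of other TRBV and 1.66% when these were weighted to the TRBJ usage of TRBV3. SLGQ was in 2.75% against 0.695%, and SPGQ in 2.62% against 0.961%. These contain residues that the V segment can encode. SAET, which TRBJ2-3 encodes, was in 5.12% of TRBV3 receptors and 5.32% of others at matched TRBJ. The other 6 of the 10 stretches were in 2.5 to 3.87% of TRBV3 receptors: SQNT in 3.87%, against 4.05% of others at matched TRBJ, SGNT in 3.5%, against 3.47%, NYAE in 3%, against 2.58%, GTGG in 2.75%, against 2.61%, SSYE in 2.62%, against 1.94%, and GAET in 2.5%, against 3.09%.

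Over the 6 libraries, the TRBV segments whose log2 share of clonotypes was most like that of TRBV3 were TRBV31 (Pearson r = 0.934), TRBV13-2 (0.726) and the chains named TRBV12-2+TRBV13-2 (0.654). TRBV31 took 3.57%, 2.5% and 2.36% of clonotypes in LNP-P20-mAb, against 4.67%, 4.56% and 5.33% in LNP-Ctrl. These are shares of the same clonotypes, so the segments also share their denominator, and the values are a description of 6 libraries.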

How the data were processed

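Per the labels' protocols, CD45+ cells were sorted from tumours and TCR transcripts enriched. Cell Ranger 8.0.1 appears in the submitters' processing notes, which list several mouse builds with no stated use. Coordinates are therefore left out. The deposited tables list assembled chains with segments, CDR3 and raw read and UMI counts per chain, already limited by the authors to productive, full-length chains of called cells. A cell or chain dropped before deposit leaves no trace in them. Libraries were grouped by title. Members, gene lists and tests were chosen with earlier results of these data known. The text names TRBV3 clonotypes of 20 or more cells, receptors with the same CDR3 amino acids in 3 or more libraries, called segments, the 2 highest and 2 lowest segments per locus (not printed for the difference between treatments, where several rest on TRBV3 counts of 0), the 10 most frequent stretches of 4 residues, groups linked by single changes and the 3 most similar TRBV. Features picked after their values were seen are named as such: the 14-residue TLYF form, TRAV7D-2 in the first comparison, other junctions printed for it and the second chains of 2-TRB barcodes.

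Cells had 1 TRB and 1 or 2 TRA chains, and barcodes with 2 TRB chains were left out as candidate doublets. A clonotype took the alpha chain found in most of its cells. The V and J ends were the commonest bases in these data (at least 40% of clonotypes at each position), because germline sequences were not used here, so a base between them is not always a non-templated one. Segment counts were fitted with edgeR 4.0.16 in R 4.3.3, taking each library's clonotype total as its size, for segments in at least 30 clonotypes (10 among TRBV3 clonotypes), adjusted by Benjamini-Hochberg at 0.05, and DESeq2 1.42.0 was an alternative. The fits were checked on simulated data. Within libraries, 8 measures were compared with exact sign-flip tests over 64 flips, and between treatments with exact permutation tests over 20 assignments, both two-sided. A share of 0 cells allows 0.0765 to 0.149% by 3 counts. Intervals and such limits cover counting error only.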

Additional observations from a re-analysis of the deposited data

Results flagged for a closer look

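The mean log2 of beta chain UMIs, TRBV3 minus other clonotypes, was -0.501 in LNP-P20-mAb, against 0.197 in LNP-Ctrl libraries. It was below 0 in all 3 LNP-P20-mAb libraries (-0.352, -0.204 and -0.946) and above 0 in all 3 LNP-Ctrl libraries (0.273, 0.252 and 0.0665). This difference between the treatments was not tested. Over all libraries the mean of TRBV3 minus other clonotypes was -0.152. It was -0.000691 with barcodes of 2 TRB chains given by UMIs and -0.253 with them kept. For alpha chain UMIs the mean difference was -0.412 in LNP-P20-mAb, against 0.031 in LNP-Ctrl, again with every LNP-P20-mAb library below 0 and every LNP-Ctrl library above it, and it was not tested. TRBV3 chains on barcodes with 2 TRB chains, which the comparisons leave out, averaged 43.9% of TRBV3 chains in LNP-P20-mAb, against 10.7% in LNP-Ctrl.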

How the results depend on the processing

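Among TRBV3 against other clonotypes, the 1 called segment became 0 with DESeq2 or with cells counted, 2 with barcodes of 2 TRB chains kept or given to the chain with more UMIs, and 0 to 1 without single libraries. Between treatments, the 1 call became 8 with TMM factors, 69 with cells counted, 3 with barcodes of 2 TRB chains kept or given by UMIs, 0 with LNP-P20-mAb 1 and 2 pooled and 0 to 1 without single libraries. For the difference between both, 0 calls became 1 with DESeq2 or with every TRA chain counted, 43 with cells counted, 3 with barcodes of 2 TRB chains kept, 2 with them given by UMIs and 0 to 1 without single libraries. The share of clonotypes (LNP-P20-mAb minus LNP-Ctrl, -5.98 points) was -4.31 with those barcodes kept, -5.22 with them given by UMIs, 1.76 by cells, and -6.62 to -5.17 without single libraries.

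The labels do not say whether the replicate numbers pair the libraries. Deviations of segment shares from the group means correlated at 0.0503, -0.168 and -0.0615 between same-numbered libraries over all clonotypes. With 3 libraries in each group, such values cannot decide whether the libraries were paired. With the replicate block, edgeR called 0 segments between treatments, and TRAV7D-2 had a log2 of 2.59 (adjusted p = 0.556).

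Within libraries, signs turned for bases between V and J (0.236; -0.311 with 2-TRB barcodes kept, -0.0865 given by UMIs, -0.903 by cells), the TRBJ2 share (-2.09 to 2.08 without single libraries), log2 TRB UMIs (0.32 by cells, -0.237 to 0.00707 without single libraries), log2 TRA UMIs (0.0335 by cells) and 2 alpha chains (7.5 points by cells). Between treatments they turned for CDR3 length (-0.104 by cells), bases between V and J (-0.882 with 2-TRB barcodes kept, -0.587 given by UMIs, -2.33 by cells, -0.222 to 0.68 without single libraries), log2 TRB UMIs (0.428 by cells), log2 TRA UMIs (0.16 kept, 0.0528 given by UMIs, 0.278 by cells, -0.28 to 0.0204 without single libraries) and 2 alpha chains (17.6 points by cells). The cause was not tested, beyond that counting cells weights the largest clones. CDR3 centre hydropathy kept its sign in all 12 alternatives run, both within libraries (0.328 to 1.03) and between treatments (0.211 to 1.25). With 53 TRBV3 clonotypes in LNP-P20-mAb, shares of rarer segments there were not detectable at this depth.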
